A study of Saccharomyces cerevisiae with 31 samples.

Results

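In budding yeast (Saccharomyces cerevisiae), arrest of small cells collected by elutriation was compared, gene by gene, with arrest of a culture that had not been sorted by size. Elutriation separates living cells by size in a centrifuge rotor and gives a culture that starts small. Genes were compared by the rank of their scaling score within each series, as the mean rank over 3 elutriation experiments against the rank in 1 unelutriated time course. Nuclear genes scored in all 4 series with a median of at least 33 reads in elutriation experiment 1 were kept, which left 2301 genes of the 6713 listed and of the 5748 nuclear genes scored in all 4 series.

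The elutriated series held 11 of the 31 libraries of the study, with 5 libraries from 15.23 to 50.77 fl (femtolitres) in experiment 1, 3 libraries from 14.92 to 41.8 fl in experiment 2 and 3 libraries from 18.61 to 66.46 fl in experiment 3. The unelutriated time course held 8 libraries from 21.56 to 44.02 fl. All of these were Cdc28-as cells, which carry an analog-sensitive form of the cyclin-dependent kinase Cdc28, and all received 1NM-PP1, the bulky inhibitor that blocks that form. Wild-type (WT) cells gave 1 elutriated series of 6 libraries from 2 to 7 h and 1 unelutriated series of 6 libraries from 0 to 6 h, and the labels give them 1NM-PP1 as well. All cultures grew in rich medium with ethanol, and a known amount of Candida albicans cells was added before RNA extraction. The labels name neither the clone nor whether the 3 elutriations came from separate cultures, so the spread between them may be partly technical, and they do not give the cell cycle phase at the start of any series.

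In budding yeast a cell in G1 passes Start, the commitment to divide, when Cdc28 with its G1 cyclins turns on the SBF and MBF transcription factors. Blocking Cdc28 stops division while growth goes on, so arrested cells become large. Growth itself rests on making ribosomes: the assembly factors and RNA polymerases I and III are made in concert under nutrient signalling, and stress and storage genes, driven by Msn2 and Msn4, are known to move in opposition to them. Cells grown on ethanol depend on respiration, the glyoxylate cycle and gluconeogenesis.

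The scaling score is read here as the slope of a gene's abundance on cell size, relative to its level in the first library of the series, in units per fl. Its formula was not given in the sources used here. Changes in starting levels, and scores that keep pace with size, rest on this reading. Size cannot be told apart from time in arrest. The score multiplied by the size span of a series (35.54, 26.88 and 47.85 fl in the elutriations, 22.46 fl in the time course) gives the fitted change in starting levels, which is a slope carried across the span and not a measured difference. An abundance that kept pace with size would score 0.0657, 0.0670 and 0.0537 per fl in the elutriations and 0.0464 per fl in the time course. The median of the 2301 genes scored 0.00990, 0.0114 and 0.00292 per fl in the elutriations, against -0.0194 per fl in the time course. Scores were above 0 for 67.9%, 73.8% and 63.2% of genes in the elutriations, against 4.22% (97 genes) in the time course. Because the centres differ this much, genes were placed by percentile within each series, where 50 is the median gene and 100 the highest score. A gene above 50 in the time course can therefore still have a negative slope.

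The order of genes was only loosely shared between the designs. Across the 2301 genes, Spearman's rho was 0.494 between elutriations 1 and 2, 0.460 between 1 and 3 and 0.486 between 2 and 3. Between an elutriation and the time course it was 0.315 for experiment 1, 0.0382 for experiment 2 and 0.133 for experiment 3, and it was 0.202 for the mean percentile of the 3 elutriations. These are descriptions across genes, which are not independent replicates, and genes measured with few reads vary more. Of the highest 25% of genes by mean elutriated percentile, 199 were also in the highest 25% of the time course and 116 in the lowest 25%. Of the lowest 25% in the elutriations, 87 were in the highest 25% of the time course and 188 in the lowest.

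A gene was said to swap sides when it lay on one side of the median gene in all 3 elutriations and on the other side in the time course. By that rule 213 genes (9.26%) were above the median gene in the elutriations and below it in the time course, and 215 genes (9.34%) did the reverse, 428 (18.6%) in all. The median difference, as mean elutriated percentile minus time course percentile, was 53.1 points in the first set and -46.3 points in the second, against -1.42 points over all 2301 genes. When sides were taken from a score of 0 in place of the median gene, 990 genes were above 0 in all elutriations and below 0 in the time course, and 11 did the reverse, so the even split belongs to the ranks and not to the slopes. Both sets resembled the members in read depth and length, with median reads of 59.5 and 71 against 66.5 over all members, and median gene lengths of 1338 and 1323 against 1294.5 bases.

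No single gene passed the test across all genes: limma's moderated test of the percentile difference called 0 of 2301 genes at a Benjamini-Hochberg adjusted p under 0.05, with a lowest adjusted p of 0.177. At an unadjusted p under 0.05 the same test counted 175 genes higher in the elutriations (7.61%) and 167 lower (7.26%), together 342 (14.9%). With percentiles turned into normal quantiles, which stretch the ends of the scale, limma called 28 genes higher (1.22%) and 27 lower (1.17%), together 55 (2.39%). Most of the 27 called lower were Gag frames of Ty1 transposons, near-identical copies that are not independent of each other. With scores centred on the median and divided by the median absolute deviation limma called 2 genes. The spread in this test comes from the 3 elutriations alone, and the single time course was assumed to vary like them. Every difference below leans on that 1 time course. Genes are therefore described by where they ranked, as the main test called none.

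**Figure D1:**
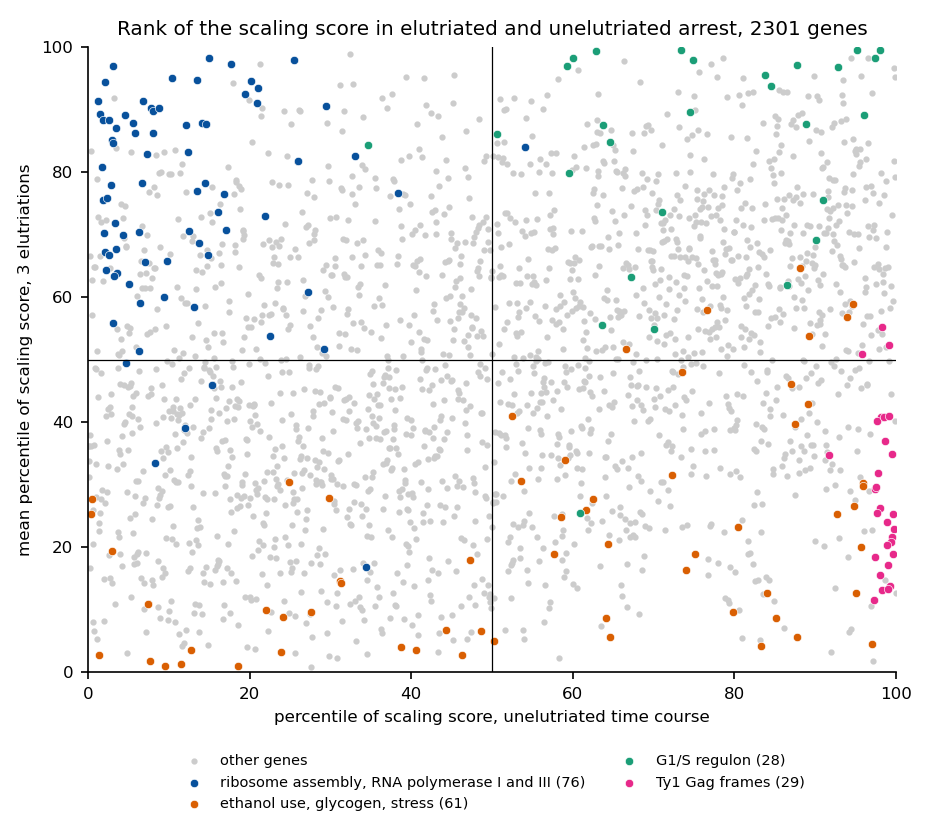
Each point is 1 of 2301 genes, placed by its scaling score percentile in the unelutriated time course (horizontal axis) and its mean percentile over the 3 elutriations (vertical axis), with lines at the median gene. The 76 ribosome assembly and RNA polymerase I and III genes crowd the upper left, the 61 ethanol use, glycogen and stress genes spread along the bottom, the 28 G1/S regulon genes sit mostly at the upper right, and the 29 Ty1 Gag frames form a column at the right edge.

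Genes that build ribosomes lay mostly in the upper left, where they were a minority of the swapped genes. Of the 45 lists with at least 5 members, 3 had medians above 50 in all elutriations and below 50 in the time course, and all 3 belong to ribosome production. The 37 members (of 71 listed) in assembly of the large ribosomal subunit had median percentiles of 76.2, 94.0 and 71.7 in elutriations 1 to 3, against 7.28 in the time course. Their median difference was 68.5 points, positive in 37 of 37. Of them 25 swapped sides (67.6%, against 9.26% of all members), all in the same direction. The 32 members (of 61) of the small-subunit processome and small-subunit assembly had 79.7, 92.4 and 80.7 in the elutriations, against 7.54 in the time course, with a median difference of 66.9 points, positive in 32 of 32, and 19 swapped. The 7 members (of 37) in RNA polymerases I and III had 91.8, 94.1 and 75.2 in the elutriations, against 15.0 in the time course, and 3 swapped. With no minimum of reads, 36 genes of the polymerase list had 76.3, 79.8 and 59.3 in the elutriations, against 33.99 in the time course. Their median difference was 32.6 points, against 63.5 points for the 7 members, so its size depended on the read minimum.

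Over the 76 genes of the 3 lists, the median fitted change across the size span was 1.43, 1.90 and 0.491 starting levels in the elutriations, against -0.727 starting levels in the time course. Over all 2301 genes it was 0.352, 0.307 and 0.140 starting levels in the elutriations, against -0.435 in the time course, so the change of sign is shared with the median gene and the lists stood further from 0 on both sides. Scores were above 0 in 65, 75 and 70 of the 76 genes in the elutriations, where 67.9%, 73.8% and 63.2% of all members were, against 0 of 76 in the time course, where 4.22% were. Together these genes gave 47 of the 213 genes higher in the elutriations (22.1%), and 85 of the 213 were in no list. How the authors scaled the libraries to one another is unknown here, so a slope is relative to that scaling. The lowest fitted change among the 76 genes was -4.35 starting levels, in elutriation 1. No abundance can fall by more than its starting level, so such values cannot be read as real changes.

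**Figure D2:**
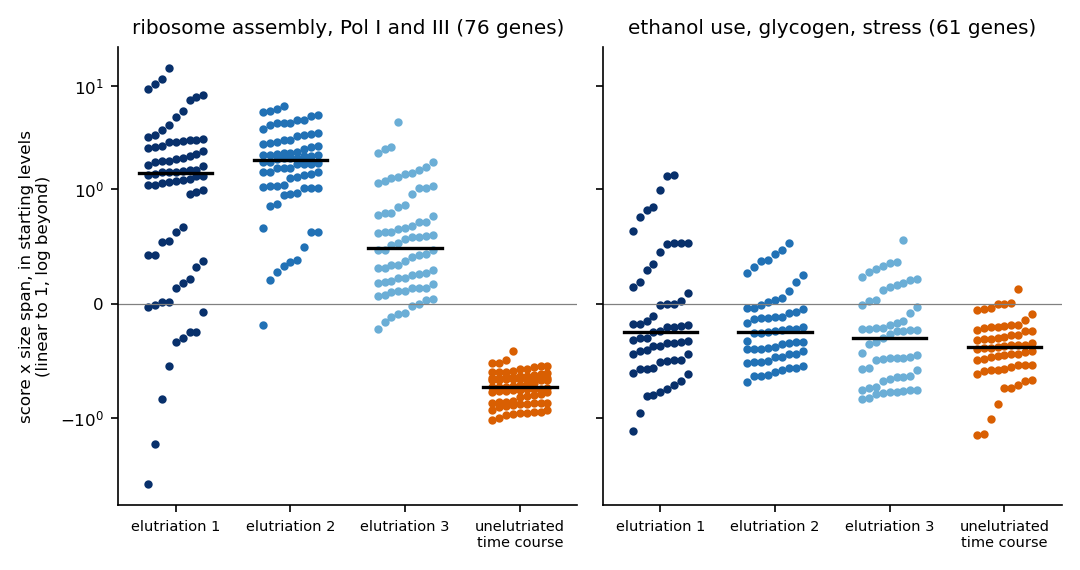
Each point is a gene's scaling score multiplied by the size span of the series, in starting levels (vertical axis, linear to 1 and logarithmic beyond), in the 3 elutriations and the unelutriated time course, with a bar at the median. The 76 ribosome assembly and polymerase genes (left) had medians of 1.43, 1.90 and 0.491 in the elutriations and -0.727 in the time course, while the 61 ethanol use, glycogen and stress genes (right) had medians of -0.250, -0.242 and -0.300 in the elutriations and -0.374 in the time course.

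The gene with the largest positive difference was UTP6 (YDR449C, chromosome IV), a component of the small-subunit processome. UTP6 scored 0.423, 0.215 and 0.0214 per fl in elutriations 1 to 3, against -0.0387 per fl in the time course. Its percentiles were 99.5, 99.6 and 91.6 in the elutriations, against 3.11 in the time course, a difference of 93.8 points with a limma standard error of 15.6. All 3 elutriations lay far above the time course, although the score in experiment 3 was much lower than in the other two.

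DBP7 (YKR024C), an RNA helicase of large-subunit assembly, ranked at 91.9, 99.3 and 92.0 in the elutriations, against 2.15 in the time course. RRP12 (YPL012W), which takes part in export and maturation of both subunits, ranked at 84.2, 94.0 and 96.0 in the elutriations, against 1.28 in the time course. SPB1 (YCL054W), a methyltransferase of large-subunit assembly, ranked at 98.7, 99.4 and 66.9 in the elutriations, against 1.80 in the time course. Among the 10 largest positive differences, which ran from 84.6 to 93.8 points, were further assembly factors: DBP2 and DBP8, both helicases, UTP10, another processome component, NOP12, and DIM1, which methylates the small-subunit RNA. CNS1 (YBR155W), a co-chaperone of Hsp90, was the exception, at 83.6, 99.2 and 92.9 in the elutriations, against 3.19 in the time course. These 10 genes were picked for swapping sides and for their large differences, so a wide gap in each of them follows from the selection. The lowest elutriated percentile among them was that of SPB1, 66.9 in elutriation 3, against 1.80 in the time course.

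RPC31 (YNL151C), a subunit of RNA polymerase III, ranked at 99.0, 96.8 and 98.9 in the elutriations, against 15.0 in the time course. RPA34 and RPA43, subunits of RNA polymerase I, differed by 73.0 and 72.3 points. RPC19, shared by both enzymes, stood at 47.9 in elutriation 1, 89.6 in experiment 2 and 93.5 in experiment 3, against 13.5 in the time course, and did not meet the rule for swapping because of experiment 1. Under normal quantiles limma's calls included 10 of the 37 large-subunit, 9 of the 32 small-subunit and 1 of the 7 polymerase genes, out of 28 genes called higher.

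The ribosomal proteins themselves did not follow their assembly factors. The 76 large-subunit ribosomal proteins had median percentiles of 90.7, 62.2 and 53.2 in the elutriations, against 80.0 in the time course, and 0 swapped. The 55 small-subunit ribosomal proteins had 90.2, 59.9 and 57.3 in the elutriations, against 82.0 in the time course, and 0 swapped. Ribosomal protein genes thus ranked above the median gene in every series, and ranked lower in elutriations 2 and 3 than in elutriation 1 or the time course. Their median differences were -13.5 points (large subunit, negative in 62 of 76) and -11.6 points (small subunit, negative in 44 of 55). Many yeast ribosomal protein genes are near-identical pairs, and the sources used here do not say how reads were divided between copies. Mitochondrial ribosomal proteins (61 members) had 78.9, 58.6 and 72.9 in the elutriations, against 53.5 in the time course. Of them 17 swapped to the elutriated-high side (27.9%, against 9.26% of all members) and 0 to the other (against 9.34%). The 33 translation factors had 81.7, 72.1 and 49.9 in the elutriations, against 49.0 in the time course. NIP1, a subunit of the initiation factor eIF3, ranked at 96.8, 96.8 and 45.7 in the elutriations, against 9.97 in the time course.

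**Figure D3:**
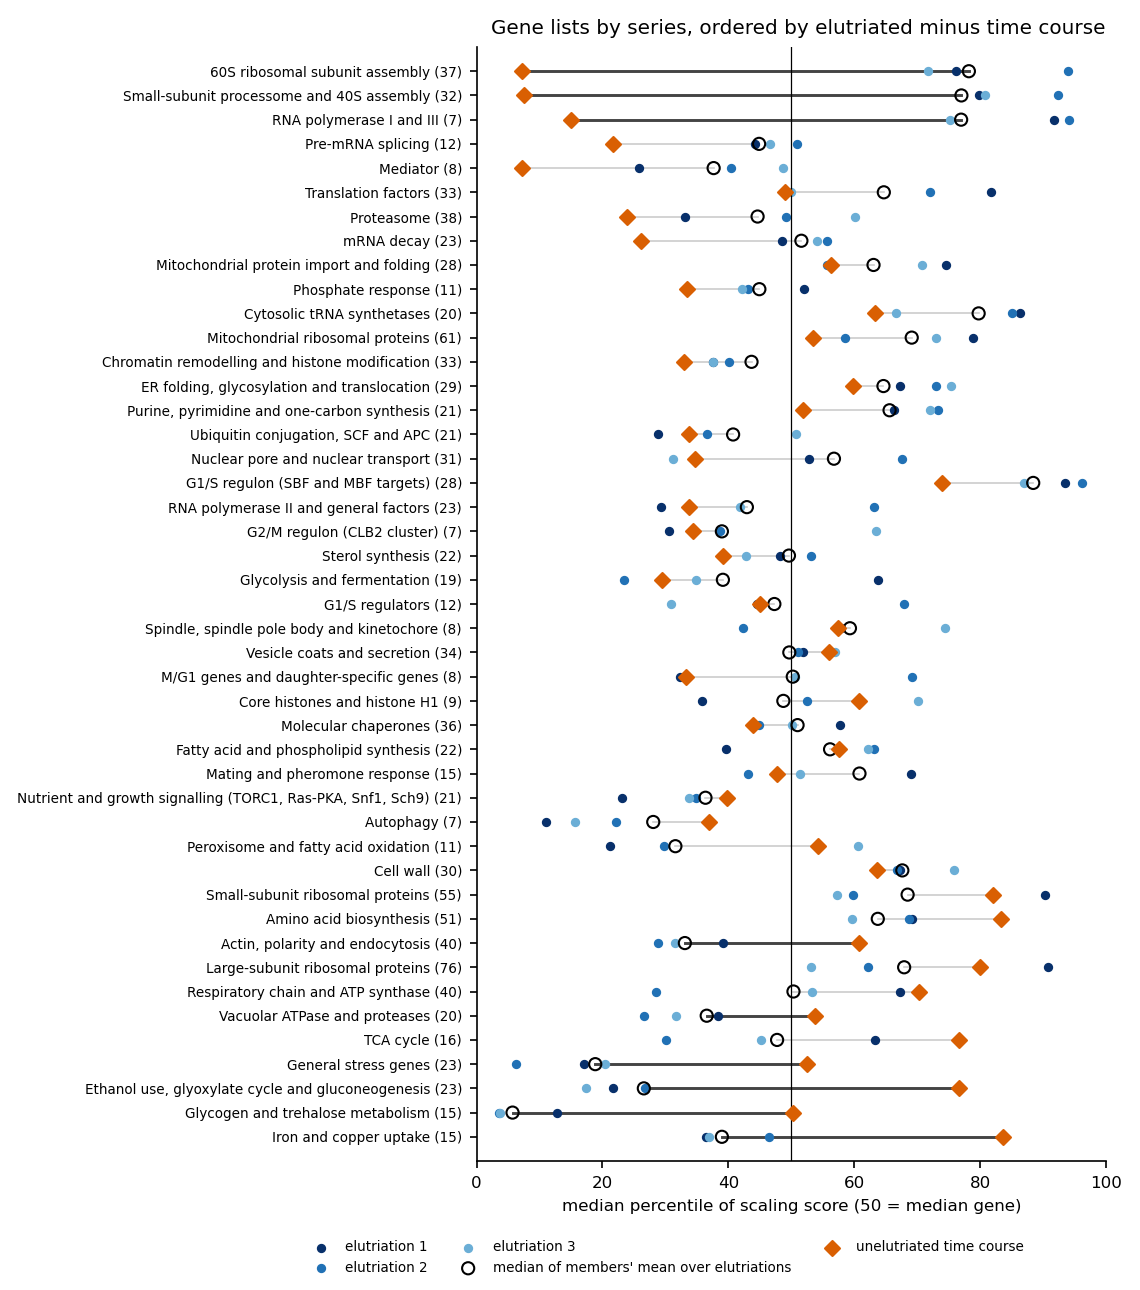
For each list with at least 5 members (number of members in parentheses), the median scaling score percentile in elutriations 1 to 3 (filled circles) and in the unelutriated time course (diamonds), with the median of the members' mean over elutriations as an open circle and a dark line where the list swapped sides. Ribosome assembly and RNA polymerase I and III stand at the top with time course medians of 7.28, 7.54 and 15.0, and iron uptake, glycogen and ethanol use at the bottom.

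On the other side, 6 lists had medians below 50 in all elutriations and above 50 in the time course: iron and copper uptake, glycogen and trehalose, ethanol use with the glyoxylate cycle and gluconeogenesis, general stress genes, vacuolar ATPase and proteases, and actin with polarity and endocytosis. Their median differences were smaller than on the ribosome side, from -38.9 to -12.4 points. The -12.4 points of the actin list lay between those of the large-subunit (-13.5) and small-subunit (-11.6) ribosomal proteins, which did not swap.

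Storage carbohydrate genes ranked near the bottom of the elutriations. The 15 glycogen and trehalose genes (of 21) had 12.8, 3.54 and 3.72 in the elutriations, against 50.3 in the time course. Of these, 8 swapped to the elutriated-low side (53.3%, against 9.34% of all members) and 0 to the other (against 9.26%). GSY2 (YLR258W), glycogen synthase, ranked at 12.8, 3.54 and 0.761 in the elutriations, against 87.8 in the time course, a difference of -82.1 points with a limma standard error of 15.9. GPH1, glycogen phosphorylase, differed by -70.1 points, TPS1, which makes trehalose phosphate, by -58.9 points and UGP1, which makes UDP-glucose, by -56.2 points. The time course median of this list is barely above the median gene, so its swap rests on the elutriations being low.

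The 23 genes of ethanol use, the glyoxylate cycle and gluconeogenesis (of 28) had 21.6, 26.7 and 17.4 in the elutriations, against 76.6 in the time course. Their median difference was -35.8 points, and 6 swapped low (26.1%, against 9.34% of all members). YAT1 (YAR035W), a carnitine acetyltransferase, ranked at 6.89, 4.72 and 2.02 in the elutriations, against 97.0 in the time course. Its score was -0.0142, -0.0145 and -0.0138 per fl in the elutriations, against 0.00562 per fl in the time course. CIT2 (YCR005C), the peroxisomal citrate synthase, ranked at 13.1, 24.2 and 0.978 in the elutriations, against 95.02 in the time course. ICL1, isocitrate lyase of the glyoxylate cycle, ranked at 15.0, 46.0 and 18.7 in the elutriations, against 94.8 in the time course, and MDH2, the cytosolic malate dehydrogenase, at 10.4, 12.5 and 15.1 in the elutriations, against 84.1 in the time course. Neighbouring parts of respiratory metabolism had negative median differences without the list swapping. The TCA cycle had -23.6 points with 3 of 16 swapped low (18.8%), and the respiratory chain and ATP synthase -18.6 points with 3 of 40 (7.50%), against 9.34% of all members.

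The 23 general stress genes (of 53) had 17.1, 6.24 and 20.4 in the elutriations, against 52.5 in the time course. Of these, 7 swapped low (30.4%, against 9.34% of all members) and 0 high (against 9.26%). HSP42 (YDR171W), a small heat shock protein, ranked at 11.4, 0.456 and 0.587 in the elutriations, against 83.3 in the time course. SOD1 (YJR104C), the cytosolic superoxide dismutase, ranked at 23.0, 6.24 and 30.7 in the elutriations, against 95.7 in the time course. The molecular chaperones as a list did not swap, with 57.8, 44.9 and 50.2 in the elutriations, against 44.0 in the time course. SSA1 (YAL005C), an Hsp70, ranked at 17.9, 11.8 and 5.02 in the elutriations, against 79.2 in the time course; it has a near-identical copy, SSA2, whose reads may be mixed with its own.

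The low side was a swap of rank more than of slope. Over the 61 genes of the ethanol, glycogen and stress lists, the median fitted change was -0.250, -0.242 and -0.300 starting levels in the elutriations, against -0.374 in the time course. Scores were above 0 in 18, 13 and 15 of the 61 genes in the elutriations, where 67.9%, 73.8% and 63.2% of all members were. In the time course scores were above 0 in 3 of 61, where 4.22% of all members were. Most of these genes thus had negative slopes in both designs. The median slope over all members was negative in the time course and positive in each elutriation.

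The 15 members (of 41) in iron and copper uptake had 36.4, 46.5 and 36.9 in the elutriations, against 83.7 in the time course. Of these, 4 swapped low (26.7%, against 9.34% of all members) and 1 high (6.67%, against 9.26%). Under normal quantiles limma called 1 gene of the list higher, FRE7 (YOL152W), and 1 lower. FRE7 differed by 66.4 points and swapped to the elutriated-high side. FIT3 (YOR383C), a cell wall protein that helps take up siderophore iron, had the largest negative difference of all swapped genes. FIT3 scored -0.0189, -0.0184 and -0.0172 per fl in the elutriations, against 0.00688 per fl in the time course, and ranked at 2.80, 2.19 and 0.282 in the elutriations, against 97.1 in the time course. HMX1, a heme oxygenase, differed by -67.4 points. FET3, the multicopper oxidase of high-affinity iron uptake, stood at 51.0, 53.0 and 10.2 in the elutriations, against 96.8 in the time course, and did not swap.

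Vacuolar and cortical genes leaned low more weakly. The 20 vacuolar ATPase and protease genes had 38.4, 26.6 and 31.6 in the elutriations, against 53.8 in the time course. Of these, 7 swapped low (35.0%, against 9.34% of all members) and 1 high (5.00%, against 9.26%). The proteases PEP4, PRB1 and PRC1 differed by -56.2, -48.7 and -40.1 points. The 40 actin, polarity and endocytosis genes had 39.2, 28.9 and 31.5 in the elutriations, against 60.8 in the time course. Among them 11 swapped low (27.5%, against 9.34% of all members) and 1 high (2.50%, against 9.26%). VRP1 (YLR337C), verprolin of the actin cortex, ranked at 2.89, 8.89 and 3.85 in the elutriations, against 83.2 in the time course. ABP1, ENT2 and RVS167, which act in actin patches and endocytosis, differed by -71.4, -67.1 and -60.7 points.

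**Figure D4:**
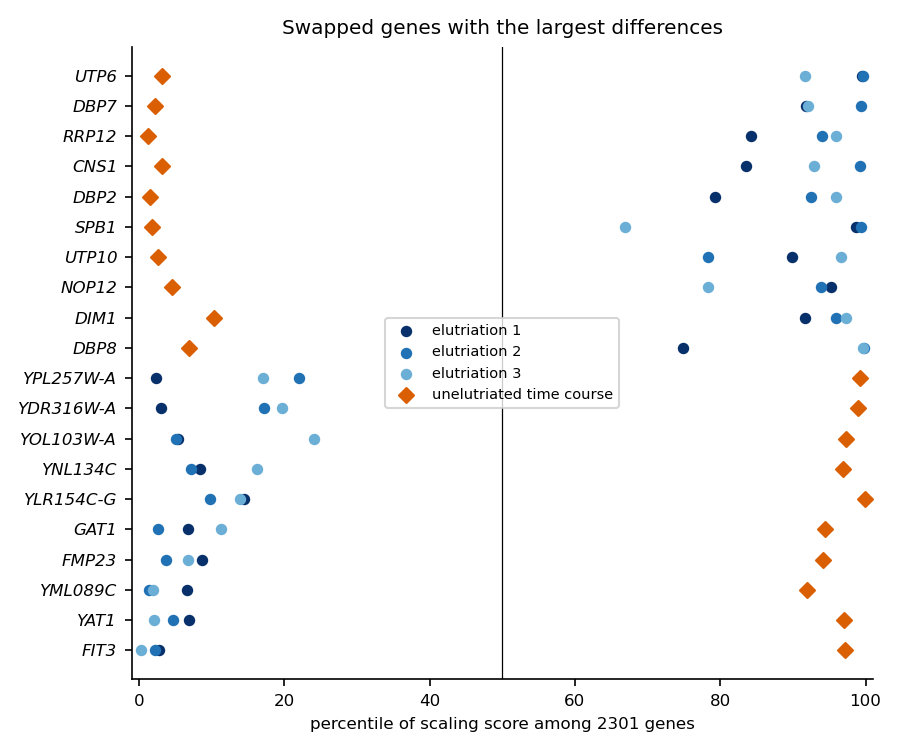
Scaling score percentile (horizontal axis, among 2301 genes) of the 10 swapped genes with the largest positive and the 10 with the largest negative difference, in elutriations 1 to 3 (circles) and the unelutriated time course (diamonds). From UTP6 to DBP8 the elutriations lie to the right, between 66.9 and 99.8, and from YPL257W-A to FIT3 they lie to the left, between 0.282 and 24.1.

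The other genes with the largest negative differences were of mixed function. GAT1 (YFL021W), an activator of nitrogen-repressed genes, ranked at 6.80, 2.67 and 11.3 in the elutriations, against 94.4 in the time course. FMP23, YNL134C and YML089C differed by -87.8, -86.3 and -88.6 points; YML089C has no entry in the R64 annotation. YLR154C-G (chromosome XII, 462522 to 462671, reverse strand) lies inside the ribosomal DNA gene RDN25-2 on the same strand. It ranked at 14.5, 9.80 and 13.9 in the elutriations, against 99.98 in the time course, where its score of 0.228 per fl was the highest of the 2301 genes. The ribosomal DNA is a repeat and the counting method is unknown here, so its reads cannot be assigned to this frame. The remaining 3, YOL103W-A, YDR316W-A and YPL257W-A, are Gag frames of Ty1 transposons.

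The promoters of swapped genes differed in short sequences that the ranks did not use. The 250 bases before each start codon were searched on both strands for 15 motifs, of which 3 are described in detail: PAC (GATGAG), bound by the repressors Dot6 and Tod6, RRPE (AAATTTT), bound by Stb3, and STRE (AGGGG), bound by Msn2 and Msn4. A promoter was counted once per motif, however many matches it held. To show what these motifs look like in place, windows that hold them were picked for that reason among the named genes. The stretch from 250 to 51 bases before the start codon is given for 3 assembly genes and 3 stress or storage genes, from the RefSeq R64 genome, 5′ to 3′ on the strand of the gene, with matches to any of the 3 motifs in capitals. The windows are UTP6 at chrIV:1358953-1359152 (reverse strand), RRP12 at chrXVI:529473-529672 (forward strand), DBP8 at chrVIII:441931-442130 (forward strand), HSP42 at chrIV:806371-806570 (forward strand), TPS1 at chrII:490443-490642 (reverse strand) and SSA1 at chrI:141482-141681 (reverse strand).
UTP6: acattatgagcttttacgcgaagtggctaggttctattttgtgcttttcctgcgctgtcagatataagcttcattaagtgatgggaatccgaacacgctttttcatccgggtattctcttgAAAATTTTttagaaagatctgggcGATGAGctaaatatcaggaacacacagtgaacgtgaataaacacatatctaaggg
RRP12: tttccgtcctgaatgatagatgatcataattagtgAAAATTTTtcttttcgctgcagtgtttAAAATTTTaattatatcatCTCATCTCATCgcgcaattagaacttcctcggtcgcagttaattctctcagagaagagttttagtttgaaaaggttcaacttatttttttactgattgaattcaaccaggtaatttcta
DBP8: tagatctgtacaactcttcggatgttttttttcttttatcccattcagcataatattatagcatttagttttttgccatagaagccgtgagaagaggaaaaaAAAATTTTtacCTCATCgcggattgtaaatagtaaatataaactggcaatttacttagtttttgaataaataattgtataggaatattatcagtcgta
HSP42: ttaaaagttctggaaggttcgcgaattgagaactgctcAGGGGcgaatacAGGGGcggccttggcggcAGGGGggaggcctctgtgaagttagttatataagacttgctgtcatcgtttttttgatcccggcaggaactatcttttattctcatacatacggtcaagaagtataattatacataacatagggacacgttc
TPS1: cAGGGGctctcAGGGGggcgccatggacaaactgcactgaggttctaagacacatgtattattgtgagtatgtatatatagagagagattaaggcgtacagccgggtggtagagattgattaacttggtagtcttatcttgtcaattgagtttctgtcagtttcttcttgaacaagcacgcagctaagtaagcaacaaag
SSA1: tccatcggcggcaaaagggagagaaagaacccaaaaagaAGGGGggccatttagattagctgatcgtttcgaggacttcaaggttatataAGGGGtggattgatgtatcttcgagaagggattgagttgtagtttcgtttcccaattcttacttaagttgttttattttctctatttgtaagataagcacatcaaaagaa
Each of the 3 assembly windows held at least 1 PAC and 1 RRPE and no STRE, and each of the other 3 held 2 or 3 STRE and neither of the others. Not every named gene did: SPB1 had no PAC and CNS1 no RRPE in the 250 bases, GSY2, SOD1 and DDR48 had 1 STRE each, and GPH1, UGP1 and YGP1 had none.

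Among the 213 genes higher in the elutriations, 89 promoters (41.8%) held PAC and 106 (49.8%) held RRPE. Among 210 promoters of genes lower in the elutriations, 27 (12.9%) held PAC and 15 (7.14%) held RRPE. The genes lower in the elutriations include 13 Ty1 Gag frames, near-identical copies whose part in the motif shares was not tested. Over 2277 members the shares were 16.8% and 23.4%, and over 6001 promoters of R64 they were 17.0% and 21.7%. Both motifs together stood in 66 promoters of the higher set (31.0%) and in 1 of the lower set (0.476%), against 7.73% of members and 6.63% of all promoters. STRE ran the other way, in 19 promoters of the higher set (8.92%) and 83 of the lower set (39.5%), against 20.6% of members and 18.8% of all promoters. Of the other motifs, GAANNTT, a short string searched for the heat shock element of Hsf1, stood in 70.4% of the higher and 42.4% of the lower set. It stood in 60.8% of members and 61.8% of all promoters, so a match does not mark an Hsf1 site. The Reb1 box (CGGGTAA) stood in 16.4% of the higher and 7.62% of the lower set, against 9.18% of members. The MBF box (ACGCGT) stood in 2.35% of the higher and 0.952% of the lower set, against 2.11% of members, and the SBF box (CACGAAA) in 3.76% and 1.90%, against 3.86% of members.

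Much of this followed the assembly lists, but not all. Of the 76 assembly and polymerase genes, 69 promoters (90.8%) held both PAC and RRPE, whether the gene swapped (43 of 47) or not (26 of 29). Among the 166 higher genes outside those lists, 27.1% held PAC, 36.1% RRPE and 13.9% both. The 107 members with both motifs outside the assembly lists had a median difference of 23.1 points, against 68.5 points for the 69 inside them. Members with PAC alone (165) and RRPE alone (297) had medians of -5.32 and 3.61 points, members with STRE alone (341) had -16.1 points, and the 1197 members with none of the 3 had -1.06 points. Base composition moved with the sets: the median GC share of the window was 33.6% in the higher set and 36.8% in the lower set, against 35.2% of members, and its part in the shares of an A and T motif such as RRPE was not tested. A match is a stretch of letters and not a measured site.

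**Figure D5:**
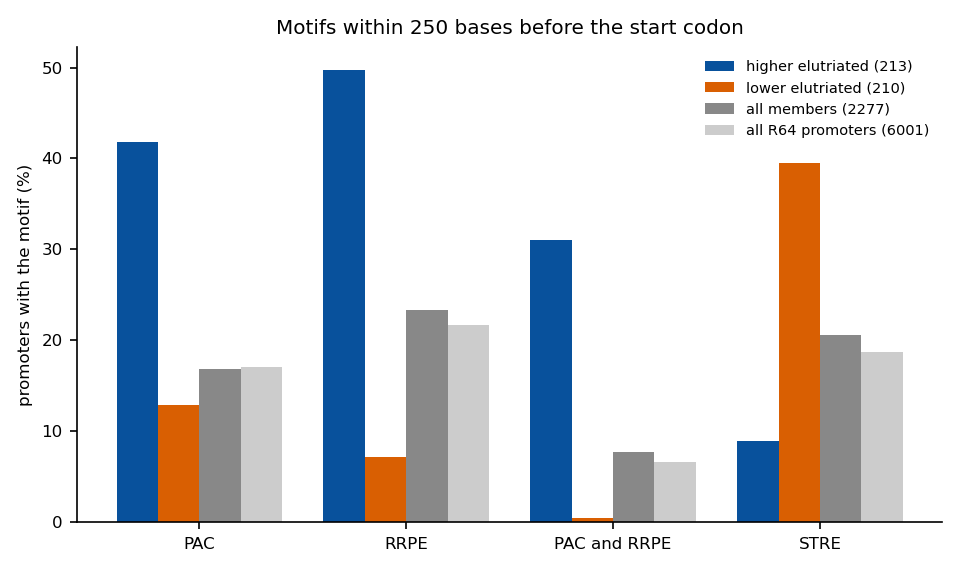
Share of promoters (vertical axis, percent) with PAC, RRPE, both, or STRE within 250 bases before the start codon, for genes higher in the elutriations, genes lower in the elutriations, all members and all R64 promoters. PAC and RRPE together stood in 31.0% of the higher set and 0.476% of the lower set, and STRE in 8.92% and 39.5%.

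The G1/S regulon, the SBF and MBF targets that fire at Start, did not swap. Its 28 members (of 63) had median percentiles of 93.5, 96.1 and 87.0 in the elutriations, against 73.9 in the time course. In each direction 1 gene swapped (3.57%, against 9.26% high and 9.34% low over all members). SVS1 and EXG1, cell surface proteins, and PCL1, a G1 cyclin of Pho85, ranked above 93 in every elutriation and at 60.1, 59.3 and 62.9 in the time course. Of 30 G1/S regulators, 18 fell under the read minimum, Cdc28 itself with 22 reads among them. PCL1 scored 0.336, 0.254 and 0.0552 per fl in the elutriations, against -0.0163 per fl in the time course. CLN3, the G1 cyclin that acts first at Start, ranked at 83.9, 90.5 and 39.7 in the elutriations, against 96.6 in the time course. FAR1, the Cdc28 inhibitor of the pheromone response, ranked at 97.8, 64.7 and 82.4 in the elutriations, against 95.5 in the time course.

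The other regulators ranked as follows. The SBF and MBF subunit SWI6 stood at 49.1, 78.8 and 5.41 in the elutriations, against 66.8 in the time course, and BCK2, an activator of Start, at 77.1, 60.6 and 12.8 in the elutriations, against 61.5 in the time course. The Cdc28 inhibitor SIC1 stood at 3.24, 73.6 and 22.1 in the elutriations, against 17.3 in the time course, and NRM1, the MBF co-repressor, at 15.97, 71.6 and 88.2 in the elutriations, against 56.6 in the time course. For these 4 genes the elutriations differed among themselves more than their mean differed from the time course. YDJ1, a co-chaperone, differed by 40.1 points and was the 1 regulator that swapped, while WHI3, WHI2, CDC55 and TPD3 differed by -0.174, -10.2, 9.16 and 6.69 points. Lists of later cell cycle phases had few members: the 7 of the G2/M regulon had 30.6, 38.7 and 63.5 in the elutriations, against 34.4 in the time course. The 8 M/G1 genes had 32.4, 69.2 and 50.6 in the elutriations, against 33.3 in the time course. The 9 histone genes had 35.8, 52.4 and 70.2 in the elutriations, against 60.7 in the time course.

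Other nuclear and protein turnover lists were low in the time course without being clearly high in the elutriations. The 8 Mediator genes had 25.8, 40.4 and 48.7 in the elutriations, against 7.28 in the time course. None of the 8 swapped, which says little in so few genes, as 9.26% of all members swapped high. The 38 proteasome genes had 33.1, 49.2 and 60.1 in the elutriations, against 23.8 in the time course, and the difference was positive in 32 of 38. RPN4, the activator of proteasome genes, ranked at 8.80, 44.2 and 90.5 in the elutriations, against 1.63 in the time course. The 23 genes of mRNA decay had a median difference of 15.99 points. Of the 23, 6 swapped high (26.1%, against 9.26% of all) and 0 low, among them RRP6 and RRP43 of the exosome and the nuclease RAT1. PHO84 (YML123C), the high-affinity phosphate transporter, ranked at 58.5, 99.5 and 92.4 in the elutriations, against 0.369 in the time course. An annotated RNA gene, YNCM0001W, overlaps PHO84, and their reads cannot be told apart without knowing whether strand was used.

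The WT series, which share no library with the Cdc28-as series, were ranked for the same gene sets. The labels give times and no sizes for these series, and the unit of their scores is not stated. Only ranks were therefore compared, as WT elutriated minus WT unelutriated. The median WT difference was 1.76 points for the genes higher in the Cdc28-as elutriations and -10.7 points for the lower set, against -0.222 points over the 2112 members scored in both. Of the higher set 98 of 190 genes were positive in WT (51.6%), and of the lower set 77 of 202 (38.1%), against 49.8% of all. The lower set includes 13 Ty1 Gag frames, near-identical copies whose part in the WT values was not tested. Across those 2112 genes the Cdc28-as and WT differences had a Spearman's rho of 0.109. By list, the WT difference was -3.77 points for large-subunit assembly, 22.9 for small-subunit assembly and -2.91 for RNA polymerases I and III, and it was -15.2 for iron and copper uptake, -7.81 for glycogen and trehalose, 2.91 for ethanol use, 10.02 for general stress genes, 2.70 for the vacuolar list and 1.02 for actin, polarity and endocytosis. The WT elutriated series began 2 h after the start of timing and the unelutriated one at 0 h, and neither has a replicate.

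Read depth touched the lists unevenly. Ranked among all scored nuclear genes, the 169 members just inside the threshold (33 to 35.5 reads) had 20 genes swapped high and 11 low, and the 175 genes just outside it (30 to 32.5 reads) had 21 and 25. In the 25% of members with the most reads (114.5 to 885) rho between mean elutriated percentile and time course was 0.341, with 41 genes swapped high and 57 low. In the 25% with the fewest (33 to 45) it was 0.216, with 60 and 34, and in the groups between it was 0.120 (45 to 66.5 reads) and 0.132 (66.5 to 114 reads), so it did not climb steadily with reads. The minimum kept 52.1% of the large-subunit assembly list and 18.9% of the polymerase list, so those lists are described by their better-read members.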

How the data were processed

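Libraries were made from total RNA; per the submitters' processing notes, Bowtie2 and genome build R64 were used. The authors deposited a scaling score per gene for each of 6 series and a median read count per gene in elutriation experiment 1, a signal whose scaling is not stated. How reads were counted, whether strand or the Candida spike-in was used, and the scaling for depth were not given in the sources used here. Depth per library is unknown, so intervals for counting error were not computed. The median read counts summed to 282178 over all genes. Lines with empty values were not used. The formula of the score is unknown; it is read as a slope on size.

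Scores were turned into percentiles within each column among the 2301 members. The mean of the 3 elutriation percentiles minus the time course percentile was tested with limma 3.58.1 in R 4.3.3 (lmFit and eBayes, Benjamini-Hochberg over all members, threshold 0.05). The step was also run on simulated data in which the time course varied as the elutriations do. That run cannot show whether the real time course does so. No exact permutation over 4 series can go below 0.25. Gene symbols came from RefSeq R64, where 2278 members have an entry and 23 have none; 4 members lie on a plasmid. Of the names in 47 gene lists 3 were not found in the table. Named genes were the 10 largest differences in each direction among swapped genes, all G1/S regulators among the members, and up to 4 members per list with the largest difference in the list's direction. FRE7 was named outside these rules, as the iron and copper gene called higher under normal quantiles. The members and lists were chosen with earlier results of these data known. Plots used matplotlib 3.10.9 and tables pandas 2.3.3.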

Additional observations from a re-analysis of the deposited data

Results flagged for a closer look

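For 9 gene lists the medians in all 3 elutriations lay on one side of the median gene and the time course median on the other. The difference between the designs was not tested for any list. The median differences, as elutriated minus time course percentile, were 68.5 points for large-subunit ribosome assembly, 66.9 points for the small-subunit processome and small-subunit assembly, and 63.5 points for RNA polymerases I and III. They were -38.9 points for iron and copper uptake, -37.1 points for glycogen and trehalose, -35.8 points for ethanol use with the glyoxylate cycle and gluconeogenesis, -29.3 points for general stress genes, -19.1 points for vacuolar ATPase and proteases, and -12.4 points for actin, polarity and endocytosis. Over all 2301 genes the median was -1.42 points. For RNA polymerases I and III the median difference fell to 32.6 points with no minimum of reads.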

How the results depend on the processing

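The number of genes swapped to the elutriated-high and elutriated-low side was 213 and 215. Leaving out 1 elutriation gave 267 to 327 and 274 to 336, where fewer series had to lie on one side. The counts were highest without experiment 1, for a reason that was not tested. A minimum of 10 reads gave 427 and 430, no minimum 530 and 529, and a minimum of 100 reads 60 and 61, with more and fewer genes tested. The side of a score of 0 gave 990 and 11, and the mean percentile of the 3 elutriations 463 and 460. Calls by limma numbered 0 in the main setting and in 7 others, 55 with normal quantiles and 2 with scores over the median absolute deviation. List medians kept their sign in every setting run. Leaving out 1 elutriation gave 63.7 to 75.3 points for small-subunit assembly, -20.2 to -15.4 for actin and -45.1 to -33.96 for iron and copper uptake. RNA polymerases I and III had 34.0015 points with a minimum of 10 reads and 32.6 with none, and no member with a minimum of 100. General stress genes had -19.3 and -17.7 points with a minimum of 10 reads and none, and glycogen -30.3 with none. With a minimum of 100 reads glycogen had -46.7, ethanol use -19.0, iron -25.2 and the vacuolar list -12.0. The cause of these shifts was not tested. The swap itself was lost with a minimum of 100 reads for large-subunit assembly (42.8, 94.7 and 62.3 in the elutriations, against 3.43 in the time course, 5 genes), the vacuolar list and iron uptake, and with a minimum of 10 reads for stress genes and for glycogen, whose time course medians became 45.0 and 48.1, and for stress genes also with no minimum (40.9). Translation factors, mRNA decay, nuclear transport, chaperones, mating, M/G1, mitochondrial import, mitochondrial ribosomal protein, TCA cycle and peroxisome lists met the rule in at least 1 other setting. Of 772 differences of 193 named genes under other settings, 760 kept their sign and 12 in 9 genes did not. Leaving out the Ty frames, an alternative chosen after seeing the data, gave 210 and 212 swapped genes.

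No paired analysis was possible because the deposited table gives 1 score per series and the time course has no number shared with the elutriations. The single time course sets the limit on every comparison, and counting error per library is unknown.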

Other observations

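Reading frames of Ty transposons stood apart and were looked at after their values were seen. The 29 Ty1 Gag frames had median percentiles of 3.37, 26.7 and 39.7 in the elutriations, against 98.5 in the time course. Of these frames 13 swapped to the elutriated-low side, where 9.34% of all members did. Their scores were above 0 in 27 of 29 frames in the time course, where 4.22% of all members were. The 29 Ty1 Gag-Pol frames had 56.1, 62.9 and 74.4 in the elutriations, against 98.2 in the time course, and 0 swapped. The 10 Ty2 Gag-Pol frames had 56.2, 75.4 and 78.5 in the elutriations, against 46.5 in the time course. Of the 10, 4 swapped to the elutriated-high side, where 9.26% of all members did. Gag is the first part of the Gag-Pol frame, the copies are near-identical, and the counting of shared reads is unknown here, so these frames are not independent of each other. In WT the Ty1 Gag frames had a median of 25.8 in the elutriated series, against 78.7 in the unelutriated one.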
